A study of Mus musculus with 21 samples.

Results

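The genes described here encode the proteins that start and extend translation. Members were all genes of the deposited log2 table whose symbol starts with Eif1 to Eif6, Eef1 or Eef2, without Eif2s3x and Eif2s3y, which gave 65 of 15249 genes. Of these, 50 were grouped as initiation and elongation factors. They include Eef1e1, Eif4a3 and Eif1ad, which carry such a name but are described below as having other or only related roles. A further 8 were kinases or repressors that act on the factors (Eif2ak1 to Eif2ak4, Eef2k, Eif4ebp1, Eif4ebp2 and Eif4enif1). The rest were 4 methyltransferases of elongation factors and 3 pseudogenes. The 50 factors were split by role into 9 that act at the start codon and in ribosome joining, 8 of eIF2, its exchange factor eIF2B and the separate factor eIF2A, 14 of eIF3, 11 of the eIF4 group and 8 of elongation. All 50 factors had an adjusted p in each comparison with the control, so that none was lost to a filter on low counts there.

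RNA was measured by 3′ mRNA sequencing in sorted CD4+ T cells of Tg4 Tiger Nr4a3-Tocky mice, a strain whose T cell receptor transgene (Tg4) sees a peptide of myelin basic protein (MBP), with an Il10-GFP reporter and a Timer protein under Nr4a3 control that is blue when new and red when mature. The 7 groups of 3 mice were an untreated control and mice given 0.8 µg or 80 µg of the [4Y] MBP peptide subcutaneously, without adjuvant, and sampled at 4 h, 12 h or 24 h. By the study's methods the sort took Blue+Red− cells at 4 h, Blue+Red+ cells at 12 h and Blue−Red+ cells at 24 h, so that time and gate cannot be told apart. The gate of the control is not given in the sources used here, so that in each comparison with the control a difference of gate cannot be told apart from treatment, and the age and sex of the mice were not analysed here. As the mice carry a T cell receptor transgene, the groups model the response to 1 antigen, and cells that did not signal were left out of the immunised groups.

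Translation starts when the small ribosomal subunit, held by eIF1, eIF1A, eIF3 and eIF5, receives the initiator tRNA from eIF2 and is brought to the mRNA cap by eIF4E, the scaffold eIF4G and the helicase eIF4A. eIF5B then joins the subunits, eEF1A delivers each aminoacyl-tRNA, eEF2 moves the ribosome along, and eIF5A helps it past difficult peptide bonds. The brakes are kinases that phosphorylate eIF2 and so block eIF2B, the kinase of eEF2, and the 4E-BP proteins, which hold eIF4E away from eIF4G. A resting T cell is small and makes little protein, and it enlarges its translation machinery before it divides.

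The libraries held 2352800 to 6244279 counts. The gene Gm42418 took 17 to 27.8% of them. All 8 markers of CD4+ T cells were detected in every library, with a summed level of 2690 to 2830 CPM (counts scaled to a common library total) in the control, 1000 to 1510 CPM at 4 h and 12 h and 2200 to 2700 CPM at 24 h. The 5 B cell markers summed to 29.8 to 79.7 CPM in the control and 2.32 to 42.4 CPM in the immunised groups, with Cd79a at 0 in some libraries. The 6 myeloid markers summed to 19.8 to 59.9 CPM, the 5 red cell markers to 5.31 to 212 CPM, and the 2 natural killer cell markers in the table to at most 5.01 CPM. The 2 CD8 T cell markers summed to 31.1 to 47.6 CPM in the control, 15.2 to 51.3 CPM after 0.8 µg and 13.1 to 28.8 CPM after 80 µg. The CD4, B cell and CD8 sums moved with the groups, while the ranges of the myeloid and red cell sums in the immunised groups mostly overlapped those of the control, and the part of these levels in the results was not tested. In bulk samples, a change of RNA per cell and a change in the share of cells that hold it cannot be told apart.

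The first question was how the factors differed between signalling cells and untreated cells. The counts of the 50 factors, divided by each library's size factor (normalised counts) and summed, came to 31833 ± 980 (SD, n = 3) in the control. They came to 72624 ± 1358 at 0.8 µg and 76544 ± 772 at 80 µg at 4 h, to 68960 ± 2718 and 72085 ± 3166 at 12 h, and to 45802 ± 3168 and 45509 ± 1364 at 24 h. The lowest immunised library (42276) lay above the highest control library (32922). The control had the lowest mean of the 7 groups for 41 of the 50 factors (82%) and for 23.3% of 12628 genes, while Eif4e3 alone had its highest mean there.

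At 4 h after 0.8 µg, 41 of 50 factors rose against the control and 2 fell at an adjusted p under 0.05 (DESeq2), where 25.4% of all genes tested were higher and 29.2% lower. Of the factors 30 rose and 1 fell by more than 1 on the log2 scale, beside 17.3% and 23.4% of all genes. After 80 µg, 44 rose and 2 fell (26.3% and 30.7% of all genes), 33 and 1 of them by more than 1 (18.4% and 25.1%). The median log2 fold change of the factors was 1.33 and 1.48, against -0.131 and -0.154 over all genes tested.

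At 12 h, 44 factors rose and 1 fell after 0.8 µg (25.2% and 27.9% of all genes), and 45 rose and 2 fell after 80 µg (25.3% and 27.4%). By more than 1 on the log2 scale, 33 rose and 1 fell at either dose, where the whole table gave 17.2% and 20.5% at 0.8 µg and 17.8% and 20.1% at 80 µg. The median log2 fold change was 1.57 and 1.5. At 24 h, 37 rose and 2 fell after 0.8 µg (20.8% and 15.2% of all genes), and 36 rose and 3 fell after 80 µg (22.1% and 16.9%). The rise was then smaller, with a median of 0.67 and 0.59 and with 7 and 9 factors higher by more than 1 (11.5% and 12.3% of all genes), while 0 factors were lower by more than 1 in DESeq2 or edgeR (5.84% and 7.91% of all genes in DESeq2) and 2 and 3 had an unadjusted p under 0.05 in that direction at any size. These 6 comparisons share the 3 control libraries. Each of 31 factors (62%) rose in all 6, beside 9.37% of 12628 genes tested in all 6, while Eif4a2 and Eif4e3 rose in 0 of them.

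**Figure D1:**
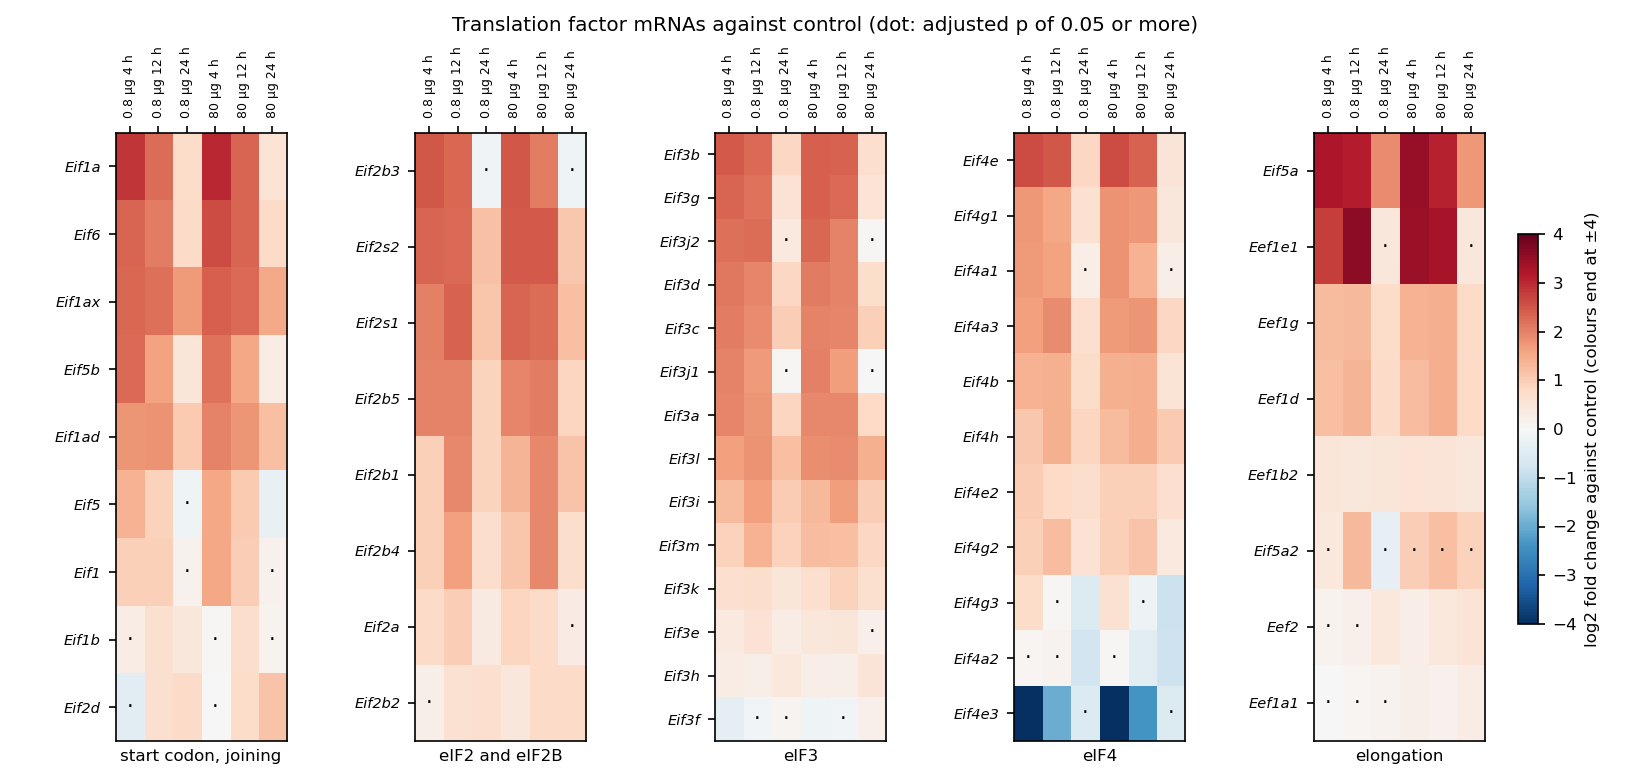
Log2 fold change of each of the 50 factors (rows) against the untreated control in the 6 immunised groups (columns), with 1 panel per role and a dot where the adjusted p was 0.05 or more. Most rows are red at 4 h and 12 h and paler at 24 h, Eif4e3 is blue, and the lowest rows of the eIF3 and elongation panels stay near white.

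Among factors of the start codon, Eif1a, which opens the decoding groove of the small subunit, rose most. Its normalised counts were 101, 124 and 117 in the control libraries, 846, 836 and 797 at 0.8 µg 4 h and 941, 925 and 898 at 80 µg 4 h. The immunised libraries at 4 h lay far above the control libraries, with log2 fold changes of 2.85 ± 0.13 (SE) and 3.00 ± 0.13 (adjusted p = 4.94e-101 and 1.17e-113, DESeq2). At 24 h it was still higher, by 0.73 and 0.53. Eif1ax, a gene for a nearly identical protein, rose by 2.31 and 2.41 at 4 h and kept a larger share of the rise at 24 h (1.70 and 1.53). The ratio of Eif1a to Eif1ax counts within a library was 0.654 ± 0.03 (SD, n = 3) in the control, 0.959 ± 0.09 and 0.998 ± 0.07 at 4 h, and 0.335 ± 0.03 and 0.329 ± 0.06 at 24 h. The ratio was thus higher at 4 h and lower at 24 h than in any control library, and only its change between groups is read here, since the level of a ratio also depends on how each 3′ end is captured.

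Eif5b, the GTPase that joins the subunits, rose by 2.26 and 2.18 at 4 h, by 1.60 and 1.54 at 12 h and by 0.49 and 0.31 at 24 h. Eif6, which keeps the large subunit from joining early, rose by 2.32 and 2.62 at 4 h, and Eif1ad, an eIF1A-like gene, by 1.75 and 1.98. Eif5, the GTPase activator of eIF2, rose by 1.39 and 1.56 at 4 h, but at 24 h its change was -0.18 (adjusted p = 0.156) after 0.8 µg and -0.30 (adjusted p = 0.0088) after 80 µg. The second call was lost without control replicate 2 or 80 µg 24 h replicate 2 (-0.24 and -0.23, adjusted p = 0.0776 and 0.0817), and the first change passed without 0.8 µg 24 h replicate 2 (-0.30, adjusted p = 0.00976). Eif2d, which can place tRNA without eIF2, went the other way in time. It did not pass the test at 4 h (-0.46 and 0.03), rose by 0.63 and 0.74 at 12 h, and was higher by 0.75 and 1.13 at 24 h. After 0.8 µg the 4 h change passed once libraries were thinned to the total of the smallest library (-0.62, adjusted p = 0.0467). The 12 h call was lost without control replicate 3 or 0.8 µg 12 h replicate 2 (adjusted p = 0.0573 and 0.148). The 24 h call was lost without 0.8 µg 24 h replicate 2 (adjusted p = 0.0537).

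Eif1, the keeper of start codon accuracy, rose by 0.94 and 1.53 at 4 h and by 0.96 and 0.99 at 12 h, and its 24 h changes of 0.16 and 0.18 did not pass the test. Its paralogue Eif1b did not pass at 4 h (0.29 and 0.06), except at 0.8 µg without control replicate 2 (0.46, adjusted p = 0.0359), and rose by 0.65 and 0.71 at 12 h. Its call at 0.8 µg 24 h (0.46, adjusted p = 0.0212) was lost after thinning, in a fit to the 2 groups only and without control replicate 1 or 3 or 0.8 µg 24 h replicate 1 (adjusted p = 0.0511 to 0.243).

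All 8 genes of eIF2, eIF2B and eIF2A (Eif2a, a single-chain factor that is no subunit of eIF2) rose at 12 h at either dose (25.2% and 25.3% of all genes), and 7 and 8 of them rose at 4 h (25.4% and 26.3%). Eif2s2, the β subunit of eIF2, had 741, 784 and 755 normalised counts in the control and 4287, 3587 and 3602 at 0.8 µg 4 h. The groups did not overlap, and the log2 fold change was 2.33 ± 0.10 (adjusted p = 6.73e-115, DESeq2). Eif2s1, the α subunit that the stress kinases phosphorylate, rose by 2.02 and 2.33 at 4 h.

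The subunits of eIF2B, which recharges eIF2 with GTP, did not rise alike. At 4 h their log2 fold changes ran from 0.23 to 2.49 after 0.8 µg and from 0.45 to 2.5 after 80 µg. Eif2b3 had 81.4, 62.9 and 68.5 normalised counts in the control, 423, 472 and 324 at 0.8 µg 4 h, and 69.1, 73.7 and 50.6 at 0.8 µg 24 h. It was thus high at 4 h and overlapped the control libraries at 24 h, where its change was -0.14 and -0.16 (adjusted p = 0.668 and 0.594). Eif2b5, which carries the exchange activity, rose by 2.00 and 1.95 at 4 h and stayed higher at 24 h by 0.90 and 0.86. Eif2b1 and Eif2b4 peaked later, at 1.93 and 1.64 at 12 h after 0.8 µg from 0.94 each at 4 h. Eif2b2 moved least of the 5 at 4 h (0.23, which did not pass, and 0.45) and was higher by 0.66 and 0.75 at 24 h. Its call at 80 µg 4 h was lost without control replicate 1 or 2 or 80 µg 4 h replicate 1 (adjusted p = 0.0692 to 0.0786). It was also lost after thinning (0.36, adjusted p = 0.0996).

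In eIF3, the large scaffold that binds the small subunit, 13 of 14 genes rose and 1 fell at 4 h at either dose, where 25.4% and 26.3% of all genes were higher and 29.2% and 30.7% lower. The subunits fell into different ranges. Eif3a and Eif3c, on which the rest assembles, rose by 1.92 to 2.04 at 4 h, and Eif3b, Eif3g and Eif3i, which form a module of their own, by 1.26 to 2.46. Eif3b had 206, 210 and 251 normalised counts in the control, 1247, 1241 and 1181 at 0.8 µg 4 h and 1126, 1205 and 1150 at 80 µg 4 h. The 4 h libraries all lay above the control, with log2 fold changes of 2.46 ± 0.13 and 2.38 ± 0.12. Eif3d, which can bind the cap of some mRNAs, rose by 2.11 and 2.08.

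The other 6 subunits of the core ring ran from -0.39 to 1.65 after 0.8 µg and from -0.19 to 1.86 after 80 µg at 4 h. Within this set Eif3l rose by 1.65 and 1.86 and Eif3m by 0.91 and 1.25, while Eif3e rose by 0.40 and 0.45, Eif3h by 0.29 and 0.25 (the second lost without control replicate 1 or 80 µg 4 h replicate 1, adjusted p = 0.0868 and 0.0588) and Eif3k by 0.68 and 0.66. Eif3f fell. Its normalised counts were 1009, 1123 and 1139 in the control and 829, 783 and 875 at 0.8 µg 4 h, with no overlap. The log2 fold change was -0.39 ± 0.08 (adjusted p = 9.24e-06) after 0.8 µg and -0.19 ± 0.08 (adjusted p = 0.0416) after 80 µg. The second of these is not firm, as it was -0.13 with adjusted p = 0.251 in edgeR, and it also missed the threshold when any 1 of 5 of the 6 libraries was left out (adjusted p = 0.0569 to 0.164).

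Eif3j1, the loosely bound j subunit, rose by 1.99 and 2.02 at 4 h and its mean was back near that of the control at 24 h (0.04 and 0.00). Its near copy Eif3j2 held only 2 to 6 counts per library in the control and 15 to 24 at 4 h. Of the 50-base words in the last 500 bases of the Eif3j2 transcript, 88.9% also occur in another gene, Eif3j1, so that reads of the pair may be exchanged. The same share was 43.0% for Eif3m, 30.4% for Eif3e and 20.8% for Eif3h, in each case through pseudogenes or unnamed genes.

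In the eIF4 group, Eif4e rose by 2.61 ± 0.14 and 2.60 ± 0.14 at 4 h, the largest rise of that group, and its paralogue Eif4e3 fell. Eif4e, the cap-binding protein (chromosome 3, 138526179 to 138559696, plus strand), had 113, 117 and 128 normalised counts in the control, 696, 710 and 797 at 0.8 µg 4 h, and 157, 158 and 197 at 80 µg 24 h. Eif4e3, an atypical cap-binding relative (chromosome 6, 99625135 to 99666771, minus strand), had 109, 95.3 and 94.2 in the control, 2.02, 6.59 and 4.32 at 0.8 µg 4 h and 1.16, 1.94 and 6.00 at 80 µg 4 h. The 4 h libraries held 1 to 7 raw counts of it each, against 66 to 106 in the control.

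Its log2 fold change was -4.23 ± 0.50 (95% interval of the unshrunken value -5.70 to -3.46, adjusted p = 7.21e-15) after 0.8 µg and -4.55 ± 0.51 (adjusted p = 4.08e-16) after 80 µg. At 12 h it was still lower, by -1.98 and -2.41. At 24 h the libraries held 54.1 to 92.9 and 41.6 to 92 normalised counts, all below the control libraries, but the changes of -0.53 and -0.54 did not pass the test (adjusted p = 0.277 and 0.256). The longer gene Gm20696, with 23 to 248 counts per library, spans Eif4e3 on the same strand and shares exon sequence with it, so that part of its reads may not have been assigned. Eif4e2, a cap-binding protein linked to repression, rose by 1.02 and 0.94 at 4 h.

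The eIF4A helicases separated as well. Eif4a1 had 449, 368 and 363 normalised counts in the control and 1122, 1494 and 1261 at 0.8 µg 4 h, a rise of 1.70 ± 0.15. Eif4a3, a helicase of the exon junction complex, rose by 1.65 ± 0.14. Of the 50-base words at the 3′ end of Eif4a3, 29.3% also occur in other genes. Eif4a2 had 256, 244 and 191 in the control and 222, 281 and 229 at 0.8 µg 4 h. Those groups overlapped, and the change of 0.07 (95% interval -0.27 to 0.41) did not pass the test. At 24 h Eif4a2 held 145, 119 and 147 counts after 0.8 µg and 139, 110 and 144 after 80 µg, below each control library, and it fell by 0.75 and 0.81 on the log2 scale. It also fell at 80 µg 12 h in DESeq2 (-0.45, adjusted p = 0.0217). That call was lost in edgeR (-0.35, adjusted p = 0.0626) and in the fit to the 2 groups only (-0.36, adjusted p = 0.101). It was also lost without control replicate 1 or 2 or 80 µg 12 h replicate 2 (adjusted p = 0.0784 to 0.109). The ratio of Eif4a1 to Eif4a2 was 1.72 ± 0.20 (SD, n = 3) in the control, 5.30 ± 0.23 and 5.84 ± 0.80 at 4 h, 4.74 ± 0.28 and 6.16 ± 0.35 at 12 h, and 3.5 ± 0.59 and 3.59 ± 0.16 at 24 h. It was higher in every immunised library than in the control.

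Of the scaffolds, Eif4g1 rose by 1.75 and 1.81 at 4 h and Eif4g2, a scaffold without an eIF4E site, by 0.95 and 0.95. Eif4g3 had 737, 707 and 804 normalised counts in the control, 1192, 1215 and 1332 at 0.8 µg 4 h and 399, 425 and 404 at 80 µg 24 h. It was therefore above the control at 4 h (0.73 and 0.62) and below it at 24 h (-0.56 and -0.87, adjusted p = 4.08e-07 and 6.29e-16). At 80 µg 12 h it passed as lower after thinning (-0.25, adjusted p = 0.0281). The helicase cofactors Eif4b and Eif4h rose by 1.38 and 1.07 at 0.8 µg 4 h and remained higher at 24 h at both doses.

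**Figure D2:**
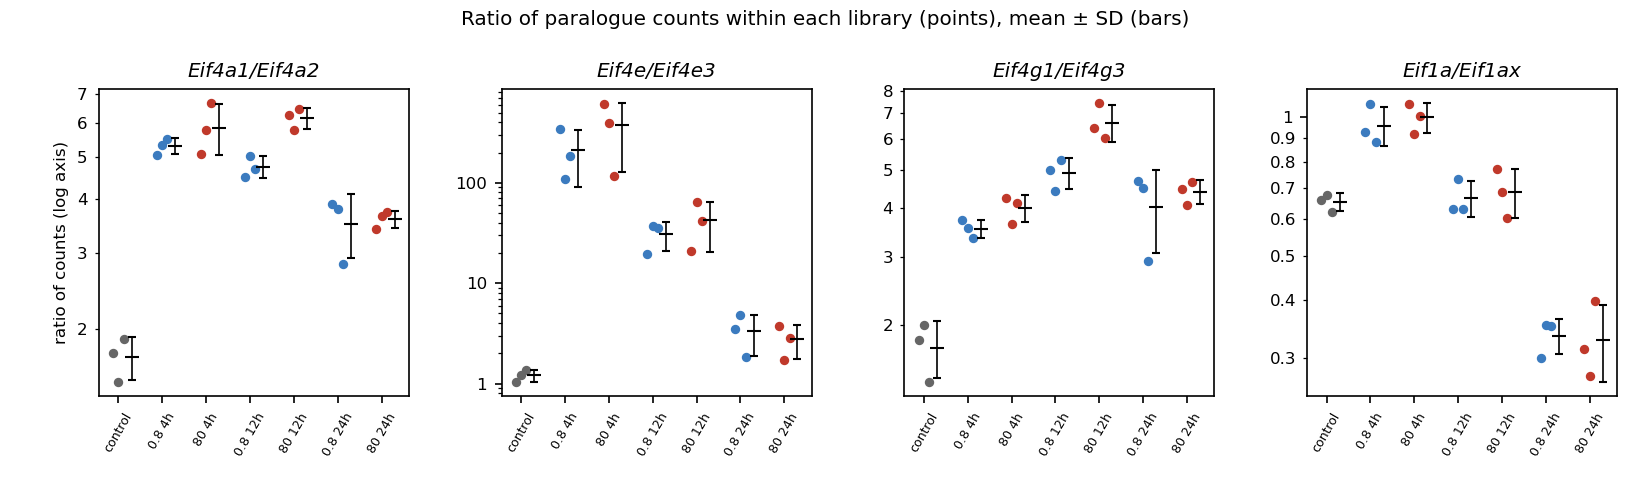
Ratio of normalised counts of 4 paralogue pairs within each library on a log axis, with points for libraries (grey for the control, blue for 0.8 µg, red for 80 µg) and bars for the mean and SD of 3 mice per group. The Eif4e to Eif4e3 ratio is higher in each 4 h library than in the control, where it averages 1.21, but its size at 4 h is not measured well because Eif4e3 held 1 to 7 raw counts there, and the Eif1a to Eif1ax ratio lies below the control at 24 h.

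Eif5a (chromosome 11, 69916714 to 69921958 on the minus strand of GRCm38) rose more than any other factor at 4 h. Its normalised counts were 327, 307 and 317 in the control, 2794, 3205 and 3052 at 0.8 µg 4 h and 3773, 3501 and 3360 at 80 µg 4 h. The log2 fold change was 3.24 ± 0.10 and 3.47 ± 0.10 at 4 h, 3.13 and 3.09 at 12 h, and 1.90 and 1.75 at 24 h, which was also the largest at that time. Eif5a2 held 3 to 32 counts per library and is not compared further.

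Eef1e1, a small eEF1-related protein of the multi-tRNA synthetase complex, had 21.6, 33.5 and 30 normalised counts in the control, 165, 196 and 234 at 0.8 µg 4 h and 363, 398 and 289 at 0.8 µg 12 h. It rose by 2.76 and 3.45 at 4 h, the second within the error of Eif5a. At 12 h it had the highest fold change of all 50 factors at either dose, 3.57 ± 0.24 and 3.31 ± 0.24. At 24 h it was at 25.3 to 51.3 and overlapped the control, with changes of 0.45 and 0.46 that did not pass the test, although the second did without 80 µg 24 h replicate 2 (0.70, adjusted p = 0.0372).

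The abundant core of elongation moved little. Eef1a1 had 3892, 4679 and 4588 normalised counts in the control and 4116, 4285 and 4600 at 0.8 µg 4 h, groups that overlapped (change -0.02, 95% interval -0.16 to 0.13). After 80 µg it rose by 0.30 at 24 h. Its changes of 0.22 at 4 h and 0.18 at 12 h passed but were lost without control replicate 1 (0.14 and 0.09, adjusted p = 0.0854 and 0.275), and the second also without 80 µg 12 h replicate 2 or 3 (adjusted p = 0.0657 and 0.0556). Eef2 rose at 80 µg by 0.41 at 12 h and 0.53 at 24 h and at 0.8 µg by 0.44 at 24 h. Its change of 0.25 at 80 µg 4 h passed, but not without control replicate 1 or 3 or without 80 µg 4 h replicate 2 or 3 (adjusted p = 0.0591 to 0.149). Its change at 0.8 µg 12 h did not pass in DESeq2, but did in edgeR (0.29, adjusted p = 0.0189), in a fit to the 2 groups only (adjusted p = 0.0448) and without 0.8 µg 12 h replicate 2 (adjusted p = 0.028). The exchange subunits of eEF1 rose by 0.50 (Eef1b2), 1.21 (Eef1d) and 1.28 (Eef1g) at 0.8 µg 4 h. For Eef1a1, 35% of the 50-base words at the 3′ end also occur in other genes, and for Eef1g 9.98%.

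**Figure D3:**
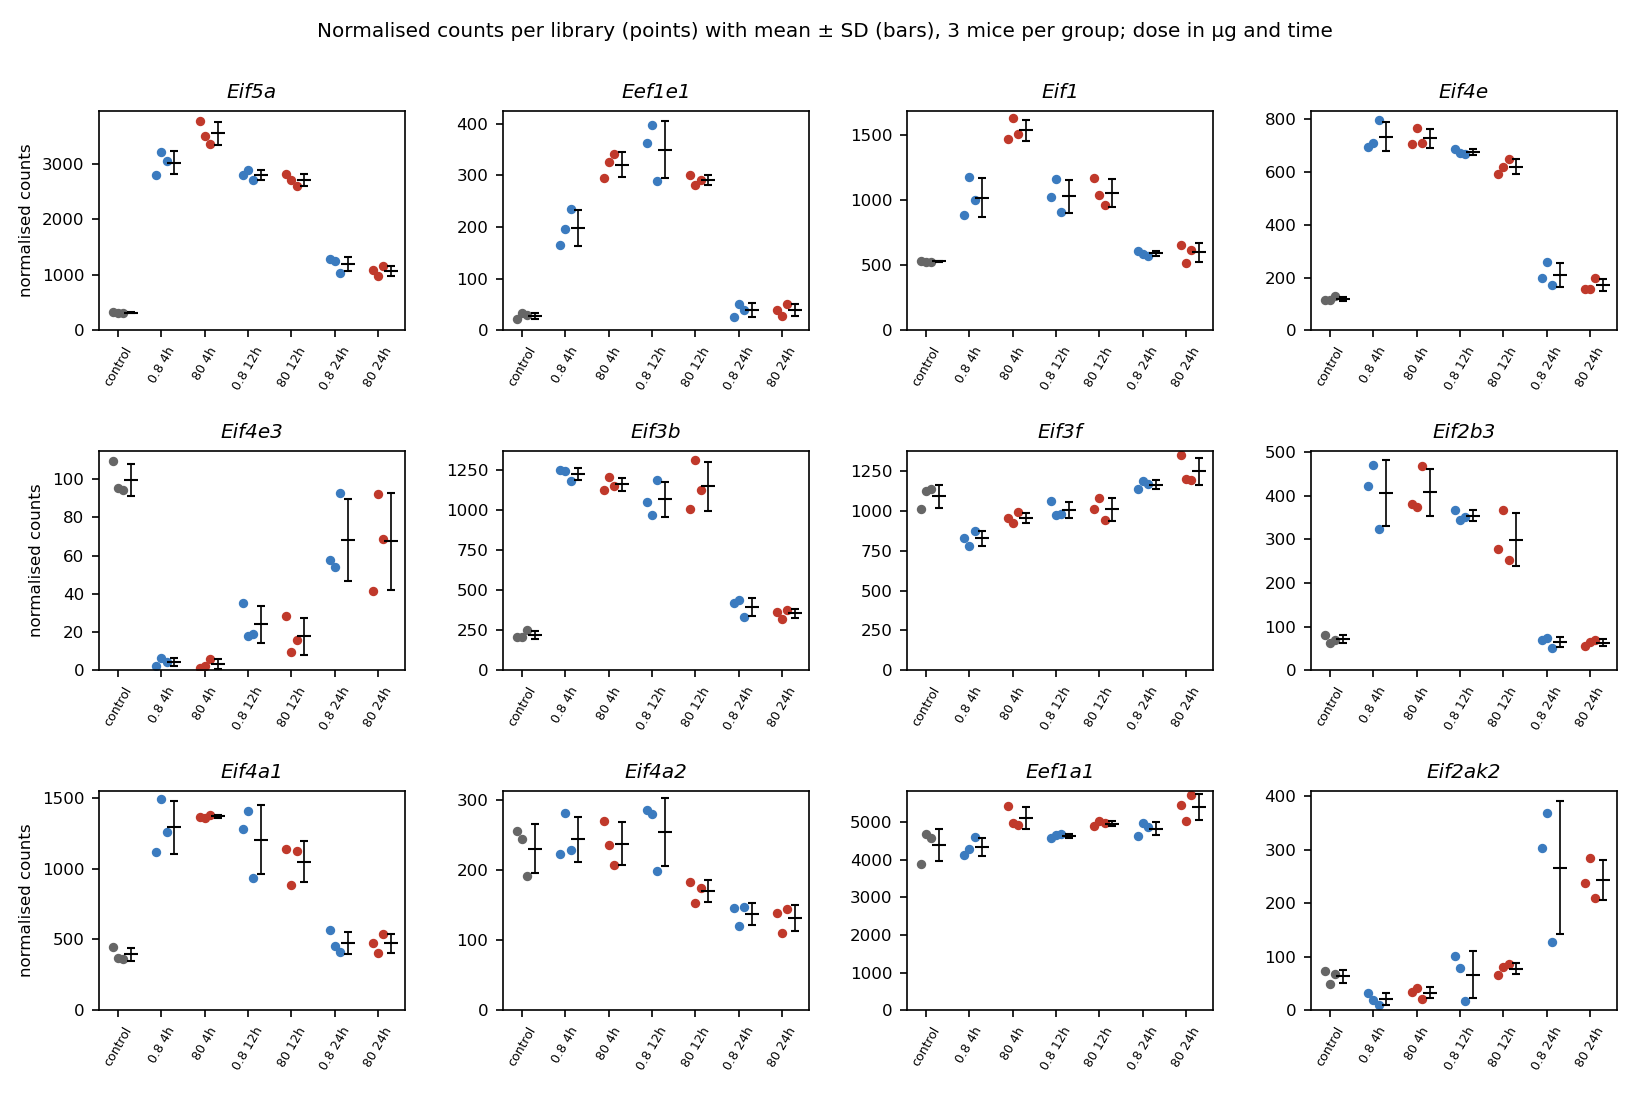
Normalised counts of 12 members in each of the 21 libraries (points, grey for the control, blue for 0.8 µg and red for 80 µg), with mean and SD of 3 mice per group, from an axis that starts at 0. Eif5a, Eif4e, Eif3b and Eif2b3 are high at 4 h and 12 h, Eif4e3 is near 0 at 4 h, Eef1a1 varies little, and Eif2ak2 is highest at 24 h.

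Of the 8 kinases and repressors, 2 rose and 3 fell at 0.8 µg 4 h (25% and 37.5%, beside 25.4% and 29.2% of all genes) and 3 rose and 2 fell at 80 µg 4 h (37.5% and 25%, beside 26.3% and 30.7%), shares near those of the whole table. Eif4ebp2, a 4E-BP, had 273, 289 and 321 normalised counts in the control, 121, 199 and 111 at 0.8 µg 4 h and 151, 130 and 132 at 80 µg 4 h. All 4 h libraries lay below the control, and it fell by 1.03 and 1.08 on the log2 scale (adjusted p = 2.51e-05 and 6.66e-06). At 12 h its changes of -0.25 and -0.46 did not pass, though the second did after thinning (-0.55, adjusted p = 0.0417) and without 80 µg 12 h replicate 1 (-0.65, adjusted p = 0.0203). Eif4ebp1 was low, with 18.6, 10.1 and 11.4 in the control and 33.3, 27.1 and 38.8 at 0.8 µg 12 h, and it rose only at 12 h, by 1.22 and 1.07 (adjusted p = 0.0243 and 0.0494). Leaving out control replicate 2 or 3, or either 0.8 µg 12 h replicate 1 or 3, gave an adjusted p of 0.057 to 0.102 for the first of these. The second was lost with the replicate block (adjusted p = 0.051) and when any 1 of 5 of the 6 libraries was left out (all but control replicate 1, adjusted p = 0.0622 to 0.163). Eif4enif1, which moves eIF4E into the nucleus, rose by 0.67 and 0.96 at 4 h.

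Among the eIF2 kinases, Eif2ak2 (PKR, the sensor of double-stranded RNA) had 72.2, 49.7 and 67.1 normalised counts in the control and 32.3, 19.8 and 9.71 at 0.8 µg 4 h. At 24 h it had 303, 368 and 128 after 0.8 µg and 238, 283 and 210 after 80 µg. It thus lay below the control at 4 h and above it at 24 h. The change was -1.48 ± 0.50 (adjusted p = 0.00711) at 0.8 µg 4 h, -0.90 (adjusted p = 0.107) at 80 µg 4 h, and 1.96 ± 0.48 and 1.84 ± 0.48 at 24 h (adjusted p = 0.000261 and 0.000633). Without 0.8 µg 4 h replicate 3 the first of these was -1.26 (adjusted p = 0.058). The change at 80 µg 4 h passed in edgeR (adjusted p = 0.0495), with the replicate block (0.0158), after thinning (0.0289) and in the fit to the 2 groups only (0.0227).

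Eif2ak3 (PERK, the kinase of endoplasmic reticulum stress) had 58.8, 30.4 and 55.7 in the control and 8.10, 0 and 13.7 at 80 µg 4 h. It fell by 1.36 and 2.52 on the log2 scale at 4 h and by 1.32 and 1.24 at 12 h, and its 24 h changes did not pass. Leaving out 1 library gave -1.02 to -1.22 (adjusted p = 0.0534 to 0.0769) in 4 fits across 12 h, and without 0.8 µg 4 h replicate 3 it was -1.13 at 4 h (adjusted p = 0.0589). Eif2ak4 (GCN2, the sensor of uncharged tRNA) rose by 0.86 and 0.81 at 4 h (the second lost without control replicate 3, adjusted p = 0.0664), and Eif2ak1 (HRI, the heme-regulated kinase) by 0.47 at 80 µg 4 h. Eef2k, the kinase of eEF2, was low, with 8.25, 13.2 and 31.4 normalised counts in the control and 0, 5.15 and 7.39 at 80 µg 24 h, where its change was -1.72 (adjusted p = 0.0104). That call was lost without control replicate 3 (-1.23, adjusted p = 0.168), without 80 µg 24 h replicate 1 (-1.44, adjusted p = 0.0692) and in a fit to the 2 groups only (adjusted p = 0.0511).

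Of the methyltransferases, Eef1akmt1 rose by 1.06 and 0.98 at 12 h. Eef2kmt fell at 80 µg 24 h against the control (-0.64, adjusted p = 0.00306), from 97.9, 101 and 107 normalised counts to 65.8, 61.1 and 68.4. It also fell from 4 h to 12 h at 0.8 µg (-0.58, adjusted p = 0.00564) and from 12 h to 24 h at 80 µg (-1.02, adjusted p = 1.41e-07), and these 3 falls passed in every alternative run. Its higher calls (0.41 and 0.51 at 4 h, and 0.55 with dose at 12 h) were not firm, as these 3 were lost after thinning (adjusted p = 0.0991, 0.107 and 0.168), the first and the last also with the replicate block (adjusted p = 0.0647 and 0.057) and when any 1 of 5 of the 6 libraries was left out, and that at 80 µg 4 h without its replicate 3 (adjusted p = 0.0744). Eef1akmt2 held 6 to 44 counts per library, Eef1akmt3 0 to 8, and the pseudogenes Eif1-ps1, Eif3s6-ps1 and Eif4a-ps4 0 to 12.

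Other genes of the pathway came from a list of 33 measured genes. At 4 h, 24 rose and 4 fell after 0.8 µg (25.4% and 29.2% of all genes), and 21 rose and 5 fell after 80 µg (26.3% and 30.7%). The largest rises were those of Pabpc4, a poly(A)-binding protein (2.84 and 2.98), Etf1, the release factor eRF1 (2.71 and 2.80), and Larp1, which binds mRNAs with a terminal oligopyrimidine tract (2.47 and 2.84). Pdcd4, an inhibitor of eIF4A, fell from a mean of 1272 normalised counts to 171 and 163.6 (-2.87 and -2.94). At 24 h, 11 rose and 3 fell after 0.8 µg (20.8% and 15.2% of all genes) and 13 rose and 7 fell after 80 µg (22.1% and 16.9%). Pabpc4 (1.90 and 1.65) and Etf1 (1.25 and 1.28) were still higher, Gspt1, the release factor eRF3a, was higher by 1.34 after 0.8 µg, Tpt1 was lower (-1.41 and -1.09), and Rptor, a subunit of mTORC1, was lower by -1.15 after 80 µg.

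The sequences at the starts of these genes were searched for 2 motifs, the E-box CACGTG, which reads the same on both strands, and a tract of a C within 2 bases of the annotated start followed by at least 4 pyrimidines, the form of a terminal oligopyrimidine (TOP) mRNA. The windows were those of RefSeq on GRCm38.p6, from 250 bases before to 50 bases after the start, and 39 of the 50 factors matched by symbol. Not matched were Eef1d, Eef1g, Eif1a, Eif2b3, Eif3e, Eif3h, Eif3i, Eif3j2, Eif4e3, Eif4g2 and Eif6. The E-box stood in a window of 11 of 39 factors (28.2%), against 8.09% of all 27025 genes and 7.15% of all 32851 windows. A TOP-like tract stood at the start of 7 of 39 (17.9%), against 10.6% of all genes and 8.96% of windows. The shares of all genes cover every gene with a window, whether or not it was expressed here. The windows below are shown because they set E-box genes that rose much beside others that moved little. Capitals mark the E-box. For Eif4e the site shown lies in window 2, at the later of its annotated starts, which holds a further match 228 bases upstream. Its window 1 holds none. Eif4g1 holds a further match 15 bases downstream of its start, and window 6 of Eif5a holds another match, 178 bases upstream of its start.

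Eif5a, chr11:69921443-69921472, minus strand, 74 bases upstream of 1 annotated start: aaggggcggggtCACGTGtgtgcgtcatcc
Eif4e, chr3:138527192-138527221, plus strand, 64 bases upstream: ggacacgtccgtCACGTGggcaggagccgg
Eif4g1, chr16:20672661-20672690, plus strand, 54 bases upstream: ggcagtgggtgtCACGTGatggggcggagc
Eif4a1, chr11:69672595-69672624, minus strand, 189 bases upstream: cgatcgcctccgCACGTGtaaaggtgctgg
Eif3k, chr7:28981915-28981944, minus strand, 44 bases upstream: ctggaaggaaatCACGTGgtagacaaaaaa
Eif3f, chr7:108934335-108934364, plus strand, 68 bases upstream: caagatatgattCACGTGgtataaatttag
Eef2, chr10:81176576-81176605, plus strand, 43 bases upstream: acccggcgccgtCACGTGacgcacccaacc

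The first 4 of these genes rose by 1.70 to 3.24 on the log2 scale at 0.8 µg 4 h, while Eif3k, Eif3f and Eef2, with the same 6 bases, had changes of 0.68, -0.39 and 0.14. Over the 11 factors with an E-box, 7 rose and 1 fell at 0.8 µg 4 h with a median of 1.07. Over the 28 without one in their window, 24 rose and 0 fell with a median of 1.52. Of all genes tested, 25.4% were higher and 29.2% lower in that comparison. At 80 µg 4 h the medians were 1.26 and 1.63. The factors that held an E-box had the lower median at both doses, a difference that was not tested. The 11 include Eif5a2, which held few counts.

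The TOP-like tract was longest in Eif3f. The windows of Eif3f and Eef1a1 hold the 15 bases before the annotated start and the first 15 bases from it, with the tract in capitals.

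Eif3f, chr7:108934400-108934429, plus strand: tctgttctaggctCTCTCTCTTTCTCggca
Eef1a1, chr9:78481710-78481739, minus strand: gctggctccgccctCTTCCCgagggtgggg

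Both of these genes moved little at 4 h, but Eif3b, Eif3l, Eif4g1, Eif1ad and Eif2b5, whose annotated starts also held a tract of this form, rose by 1.65 to 2.46 after 0.8 µg. The median over the 7 was 1.75 and 1.86 at the lower and higher dose, against 1.22 and 1.48 over the 32 without one. This difference was not tested, and the ranges at the lower dose overlapped (-0.39 to 2.46 with a tract, -0.46 to 3.24 without). The 32 include Eef2 and Eef1b2, and 11 factors had no window. A match is a description of these letters at an annotated start and not a measured site. A tract at a start other than the annotated one would be missed.

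The dose question compared 80 µg with 0.8 µg at each time. At 4 h, 4 of the 50 factors rose and 0 fell, where 5.81% of all genes were higher and 6.19% lower, and 8 factors had an unadjusted p under 0.05, beside 21.4% of all genes. edgeR gave 2 higher and 0 lower. Eif1 had 881, 1174 and 998 normalised counts at 0.8 µg and 1469, 1627 and 1506 at 80 µg. The groups did not overlap, and the log2 fold change was 0.59 ± 0.11 (adjusted p = 3.87e-06). Eef1e1 had 165, 196 and 234 at 0.8 µg and 294, 325 and 342 at 80 µg, a rise of 0.69 ± 0.19 (adjusted p = 0.00492).

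Eef1a1 (0.24, adjusted p = 0.0129) and Eif5a (0.23, adjusted p = 0.0452) rose by less. Both calls were lost in edgeR (adjusted p = 0.0614 and 0.102), and that of Eif5a also with the replicate block (adjusted p = 0.0679). Without replicate 1 of either dose, Eef1a1 was at 0.20 and 0.19 (adjusted p = 0.112 and 0.143) and Eif5a at 0.18 and 0.19 (adjusted p = 0.273 and 0.272), and Eef1e1 was at 0.58 (adjusted p = 0.0744) without 0.8 µg replicate 1. Eef1a1 was also lost without 0.8 µg replicate 2 (adjusted p = 0.0583), and Eif5a without 0.8 µg replicate 3 or 80 µg replicate 2 (adjusted p = 0.113 and 0.102). A fit to the 2 groups only gave 6 higher, with Eif5 and Eif2s1 added (adjusted p = 0.0351 and 0.0439). Eif6 passed without 0.8 µg replicate 1 (0.43, adjusted p = 0.0402) and Eif3m without 0.8 µg replicate 2 (0.50, adjusted p = 0.0322). Eif4e differed by -0.01 (95% interval -0.24 to 0.21), Eif3b by -0.08 (-0.30 to 0.15), Eif2b3 by 0.01 (-0.32 to 0.34) and Eif4e3 by -0.32 (-1.80 to 1.05). The median over the 50 factors was 0.07, and the median size on either side of their 95% intervals was 0.22.

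At 12 h, 0 factors rose and 1 fell with dose (3.67% of all genes higher and 2.60% lower), with 6 at an unadjusted p under 0.05 beside 16.9% of all genes, and edgeR gave the same counts. Eif4a2 had 285, 280 and 198 normalised counts at 0.8 µg and 183, 153 and 174 at 80 µg, and its change was -0.59 ± 0.17 (adjusted p = 0.0143). Leaving out 0.8 µg replicate 1 or 2 or 80 µg replicate 2 gave -0.51 to -0.52 (adjusted p = 0.125 to 0.142). Without 0.8 µg 12 h replicate 3, Eef2 was higher at 80 µg (0.36, adjusted p = 0.00793). At 24 h, 0 factors passed in either direction (3.73% and 2.20% of all genes) in DESeq2 and in edgeR, while 8 had an unadjusted p under 0.05 in DESeq2, beside 17% of all genes. Eif4g3 came closest, at -0.30 (adjusted p = 0.0537). Without 0.8 µg 24 h replicate 3, 4 factors were lower at the higher dose (Eif4e, Eif4g1, Eif4g2 and Eif5b, -0.25 to -0.42, adjusted p = 0.0315 to 0.0498), and without its replicate 1 Eif4g3 was lower (-0.37, adjusted p = 0.029).

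**Figure D4:**
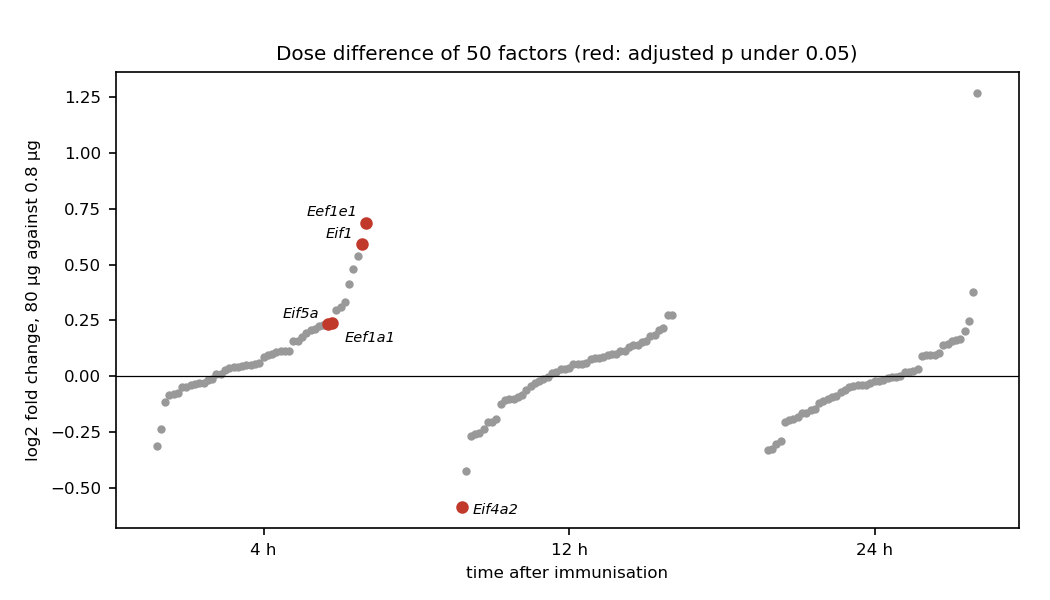
Log2 fold change of each of the 50 factors between 80 µg and 0.8 µg, ordered by size within 4 h, 12 h and 24 h, with red points for an adjusted p under 0.05. Red points are Eef1e1, Eif1, Eef1a1 and Eif5a at 4 h and Eif4a2 at 12 h, and the grey point at 1.27 at 24 h is Eif5a2, which held 3 to 28 counts per library at that time.

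Whether the dose effect changed over the 3 times was tested by a likelihood ratio on the 18 immunised libraries. It was past the threshold for 2 of 50 factors, against 10.4% of all genes tested. They were Eif1, with a dose effect of 0.59 at 4 h that went to 0.03 at 12 h and 0.02 at 24 h, and Eef1e1, with 0.69, -0.27 and 0.02. Eef1e1 was thus higher at 80 µg only at 4 h, and at 12 h the 0.8 µg libraries (363, 398 and 289) overlapped the 80 µg libraries (301, 281 and 292). Neither passed with replicate 1 or replicate 2 of all groups left out (adjusted p = 0.17 and 0.102 for Eif1, 0.29 and 0.452 for Eef1e1), and without replicate 3 it was 0.0514 for Eif1 and 0.0146 for Eef1e1.

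The last comparisons followed time within a dose, and they share libraries from step to step. From 4 h to 12 h, 10 factors rose and 5 fell at 0.8 µg (20.9% and 18.2% of all genes), and 7 rose and 10 fell at 80 µg (23.6% and 19.3%), shares at or under those of the whole table at 0.8 µg and, for rises, at 80 µg. Eif4e3 had the largest rise, by 2.25 and 2.14, and Eif4g3 (-0.67 and -0.81), Eif5b (-0.66 and -0.64) and Eif1a (-0.62 and -0.68) had the largest falls at both doses. Eif3j1 fell at 80 µg (-0.34, adjusted p = 0.0357), a call that was lost with the replicate number as a block (-0.34, adjusted p = 0.0511). Eif1 fell by 0.54 on the log2 scale at 80 µg, while its change at 0.8 µg was 0.02.

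From 12 h to 24 h, 2 factors rose and 39 fell at 0.8 µg, where 24.9% of all genes were higher and 19.1% lower. At 80 µg, 3 rose and 39 fell (24.9% and 19.8%). The median change was -0.85 and -0.77, against 0.12 over all genes at either dose. Eef1e1 (-3.13 and -2.84), Eif2b3 (-2.43 and -2.22) and Eif4e (-1.68 and -1.85) were among those with the largest falls. Eif4e3 rose again by 1.45 and 1.87. The other rises, those of Eif3f at both doses and of Eif3h at 80 µg, were small and did not pass in edgeR (0.12 to 0.17, adjusted p = 0.133 to 0.321). In DESeq2, Eef1a1, Eef1b2, Eef2, Eif2b2, Eif2d and Eif4e2 did not pass at either dose. At 80 µg, Eif4e2 passed in edgeR (-0.38, adjusted p = 0.00882), in the fit to the 2 groups only (adjusted p = 0.017) and without 80 µg 12 h replicate 1 (adjusted p = 0.0315), and Eef1b2 in edgeR (-0.20, adjusted p = 0.0418). At 0.8 µg, Eef2 passed after thinning (0.25, adjusted p = 0.0416) and without 0.8 µg 12 h or 24 h replicate 3 (adjusted p = 0.000459 and 0.0475). The repressor Eif4ebp1 fell by 2.06 and 1.53 (the second lost without 80 µg 24 h replicate 2, -1.18 and adjusted p = 0.0537), and the kinase Eif2ak2 rose by 1.88 and 1.55.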

How the data were processed

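RNA from the sorted cells was made into QuantSeq 3′ (FWD) libraries, 1 per mouse. By the study's methods and the submitters' processing notes, the authors trimmed reads with Bbduk, aligned them to GRCm38 (mm10) with STAR 2.5.2a, checked them with FastQC and SAMtools, and counted them per gene with HTSeq. Which annotation release and strand setting they counted with, and whether molecular identifiers were used, is not given in the sources used here. Without a known strand setting, reads of a gene and of one that overlaps it on the other strand cannot be told apart. This bears on Eif1ad, Eif1b, Eif2d, Eif5b, Eif6, Eif2a, Eif2b4, Eif3d, Eif3j1, Eif3m, Eif4a2 and Eef1b2. It also bears on the kinases Eef2k, Eif2ak1, Eif2ak2 and Eif2ak3 and on the methyltransferases Eef1akmt3 and Eef2kmt. Exons of Eif3j1, Eif4a2 and Eef1d, among others, overlap those of another gene on the same strand, where part of the reads may not have been assigned. In 3′ libraries the level of a gene depends on how its 3′ end is captured, so that levels were compared between groups and not between genes.

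The authors deposited raw counts and a table of regularised log2 values, which they made with DESeq2 after removing genes under 10 counts over all samples. The log2 table served to find the members, to pair symbols with identifiers and to check replicate numbers, and every test used the deposited counts, of which 2352800 to 6244279 were assigned per library. No pair of libraries held identical values.

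Counts of genes with at least 10 counts over the 21 samples were fitted with DESeq2 1.42.0 in R 4.3.3, with 1 coefficient per group (Wald test, Benjamini-Hochberg over all genes tested, threshold 0.05), and log2 fold changes were shrunken with the normal prior. Printed log2 fold changes are shrunken, and errors are standard errors unless given as SD. A likelihood ratio test of dose by time used the 18 immunised samples. Samples were grouped by their labels, and the 13 comparisons were of each immunised group with the control, of doses at each time and of successive times at each dose. The scripts were tested on simulated data. Alternatives were edgeR 4.0.16 (quasi-likelihood), TMM size factors, no filter, fits to 2 groups only, thinning to the smallest library, unshrunken values, the replicate number as a block, and leaving out each library in turn.

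The members and gene lists were chosen with earlier results of these data known. Genes named were the paralogue pairs, the kinases and repressors, up to 3 factors per role with the highest and up to 3 with the lowest change among those that passed and averaged 20 normalised counts or more, the factors past the interaction test, and up to 4 genes of the wider pathway. Further members were named to complete a role. Eef1a2, Eif4e1b, Eif4ebp3, Gcn1 and Dph1 were not analysed here. The replicate numbers do not come with a shared litter or day in the labels. Deviations of samples with the same number correlated by 0.107 to 0.188 in the comparison of 80 µg at 12 h with 4 h. The counts given there are from the fit without a block, and the call lost with the replicate block is stated beside them. In the other 12 comparisons not every pair correlated by over 0.1. The P values measure the spread between mice. Exon overlaps were read from the GENCODE annotation and promoter windows from RefSeq, both on GRCm38.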

Additional observations from a re-analysis of the deposited data

Results flagged for a closer look

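The dose effect differed between times for Eif1 and Eef1e1 in the likelihood ratio test. For Eif1, the keeper of start codon accuracy, it was 0.59 at 4 h, 0.03 at 12 h and 0.02 at 24 h, which is a range of 0.574 on the log2 scale. For Eef1e1, the small eEF1-related protein of the multi-tRNA synthetase complex, it was 0.69, -0.27 and 0.02, a range of 0.956. The groups had 3 mice each. Neither passed without replicate 1 (adjusted p = 0.17 and 0.29) or replicate 2 (adjusted p = 0.102 and 0.452) of all groups, nor did Eif1 without replicate 3 (adjusted p = 0.0514).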

How the results depend on the processing

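No factor changed direction in a call under any alternative run. There were 650 changes (50 factors in 13 comparisons). Only those that were called, 0 to 47 factors per comparison, could lose a call. In edgeR 10 calls were lost and 10 gained, with TMM size factors 2 and 1, and in fits to 2 groups only 9 and 7. After thinning 10 were lost and 3 gained, and without the filter 0 were lost. Over the fits with 1 library left out, 111 values lost their call and 25 gained one. Of the 17 calls for 80 µg at 12 h against 4 h, 7 were lost in at least 1 of these fits. The median of all genes shifted by over 0.1 only in edgeR, by 0.101 for 80 µg at 12 h against the control and by -0.128 for 80 µg at 24 h against 12 h.

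The factors lower at 80 µg 4 h against the control, 2 in DESeq2, were 1 in edgeR, with TMM, with the replicate block and in the fit to 2 groups, and 1 to 2 with 1 library left out. Those lower at 80 µg 12 h were 1 in edgeR and in the fit to 2 groups, and 1 to 2 with 1 library left out. After thinning, Eif4g3 was also lower there (-0.25, adjusted p = 0.0281). With dose at 4 h, edgeR gave 2 higher, the fit to 2 groups 6, and leaving out 1 library gave 2 to 4. With dose at 12 h, leaving out 1 library gave 0 to 1 higher and 0 to 1 lower, and at 24 h 0 to 4 lower. From 12 h to 24 h, factors higher at 0.8 µg were 1 in edgeR and in the fit to 2 groups and 1 to 3 with 1 library left out. After thinning, Eef2 was also higher at 0.8 µg (0.25, adjusted p = 0.0416). At 80 µg, factors higher were 1 in edgeR and in the fit to 2 groups. The interaction count was 0 to 3 with 1 replicate number left out. The causes were not tested.

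Deviations of samples with the same replicate number correlated by -0.176 to 0.293, with 11 of 39 pairs over 0.1. With the replicate block, 5 calls of factors were lost and the count of factors higher with dose at 4 h was 3. Members with few counts (Eif5a2, Eif3j2, Eef1akmt3 and the pseudogenes) are limited by depth.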
